A study of Homo sapiens with 8 samples.

Results

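The genes described here are the replication-dependent histone genes and their closest relatives by name. They were chosen as all genes whose current symbol begins with H1-, H2AC, H2BC, H3C or H4C and that had a probe set of their own, each read by whichever of its probe sets was brightest on average. By this rule 50 of the 19775 genes measured were members: 11 of the linker histone H1, 9 of H2A, 14 of H2B, 7 of H3 and 9 of H4. Of them 42 were classed here as replication-dependent histone genes, among them H2BC12L, which lies on chromosome 21. The other 8 were the replacement linker histone H1-10, the germline linker histones H1-6, H1-7 and H1-8, the pseudogenes H1-9P, H2AC5P and H4C10P, and H1-10-AS1, an antisense RNA that is no histone gene and entered by its symbol alone.

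The cells were CUTLL1, an established human line of T-cell acute lymphoblastic leukemia with a rearranged NOTCH1 gene. They were cultured for 48 h with DMSO as vehicle, with 1 microM PF-03084014 (an inhibitor of gamma-secretase, the protease whose cut releases active NOTCH), with 1 microM dexamethasone (a glucocorticoid), or with both at these doses. Each of the 4 groups had 2 Affymetrix arrays, 8 in all. Nothing in the labels says that the 2 arrays of a group were separate cultures, and p-values here measure only the spread between arrays, which may be technical. All groups are 1 cell line, and each treatment was compared with the same 2 DMSO arrays.

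Histones H2A, H2B, H3 and H4 form the core that DNA wraps around, and H1 binds the DNA where it enters and leaves that core. Replication-dependent histone genes lie in clusters, are transcribed mainly in S phase under NPAT, and give mRNAs that end in a stem-loop bound by SLBP in place of a poly(A) tail. A few of them, H2AC6 and several H2B genes among them, can also give polyadenylated mRNA, a form known from cells that leave the cell cycle. The labelling kit used here primes from poly(A) tails, so the 2 forms of mRNA may not be measured equally. The part of this in the intensities was not tested.

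The promoters of 5 members on which the results below turn are shown first, because they display the elements that set the histone types apart: 2 linker histone genes that fell with both compounds, and an H2A and 2 H2B genes that rose. Each is the 250 bases before the gene's RefSeq start on GRCh38.p14, written 5′ to 3′ on the gene's strand. Capitals mark the TATA box motif TATAAA, the sequence CCAAT, the octamer ATTTGCAT and the H1 box AAACACA on either strand. Where capitals run on, matches overlap.
H1-3 (chr6:26234988-26235237, minus strand): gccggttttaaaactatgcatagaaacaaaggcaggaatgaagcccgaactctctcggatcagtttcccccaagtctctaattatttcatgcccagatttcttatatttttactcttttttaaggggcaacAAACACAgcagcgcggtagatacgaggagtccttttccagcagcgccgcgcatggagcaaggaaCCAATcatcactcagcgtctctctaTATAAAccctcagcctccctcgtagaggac
H1-4 (chr6:26156079-26156328, plus strand): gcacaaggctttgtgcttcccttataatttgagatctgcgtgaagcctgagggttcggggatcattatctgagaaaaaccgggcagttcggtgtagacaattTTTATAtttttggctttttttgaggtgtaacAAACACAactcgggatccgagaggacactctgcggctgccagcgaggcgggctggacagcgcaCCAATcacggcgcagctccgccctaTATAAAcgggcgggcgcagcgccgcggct
H2AC6 (chr6:26123922-26124171, plus strand): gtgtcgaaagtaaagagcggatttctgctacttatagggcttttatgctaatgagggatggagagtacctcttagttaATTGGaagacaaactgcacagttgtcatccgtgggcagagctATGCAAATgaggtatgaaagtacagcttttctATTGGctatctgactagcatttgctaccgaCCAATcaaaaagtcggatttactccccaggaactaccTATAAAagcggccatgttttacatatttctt
H2BC12 (chr6:27146859-27147108, minus strand): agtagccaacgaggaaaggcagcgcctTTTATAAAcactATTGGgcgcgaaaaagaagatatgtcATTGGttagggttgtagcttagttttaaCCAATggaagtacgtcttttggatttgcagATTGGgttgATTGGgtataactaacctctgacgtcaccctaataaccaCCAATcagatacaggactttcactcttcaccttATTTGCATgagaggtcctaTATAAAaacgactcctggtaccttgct
H2BC5 (chr6:26157871-26158120, plus strand): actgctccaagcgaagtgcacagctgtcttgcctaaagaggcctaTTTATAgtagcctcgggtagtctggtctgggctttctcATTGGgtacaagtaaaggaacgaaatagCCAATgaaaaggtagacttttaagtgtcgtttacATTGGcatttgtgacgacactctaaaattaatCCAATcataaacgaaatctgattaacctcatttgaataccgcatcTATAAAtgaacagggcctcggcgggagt

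In all 5 windows a TATAAA began 27 to 31 bases before the start. H1-3 and H1-4 shared the H1 box, 119 and 117 bases before their starts, and a CCAAT 55 and 54 bases before. The octamer, a binding motif of the POU factor OCT1, was in the windows of H2AC6 and H2BC12, and no exact match was found in that of H2BC5.

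These elements followed the histone type across the 43 members with a RefSeq promoter window, of which 39 were replication-dependent. The H1 box was in the windows of 5 of 5 replication-dependent H1 genes and in none of the 34 core histone windows, against 4.82% of all 35116 promoter windows. The octamer was in 6 of 8 H2A and 10 of 13 H2B windows and in no H1, H3 or H4 window, against 1.63% of all windows. Windows of H2A and H2B neighbours read in opposite directions can overlap, so the same site can count for both genes. The octamer that began 130 bases before the start of H2AC6 was also that of H2BC4, 123 bases before its start. CCAAT was in every replication-dependent H1, H2A, H2B and H3 window and in 28.6% of the H4 ones, against 32% of all. TATAAA was in 69.2% of the replication-dependent windows at any distance from the start, against 10.7% of all. In some the only match was far from the start, at 220 bases in H2BC4 and 206 in H2AC8. That of H2BC4 was the match 31 bases before the start of H2AC6. The core motif of RBPJ, the DNA-binding partner of NOTCH (TGGGAA), was in 20.5% of the replication-dependent windows, against 20.8% of all. A short motif of the glucocorticoid receptor (AGAACA) was in 20.5% of them, against 12.4% of all. A match describes letters only, and both strands were searched.

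With both compounds 9 members rose and 2 fell against DMSO, by an adjusted p under 0.05 in limma's test over all genes. With either compound alone 1 member rose, H2AC6 in both cases, and none fell. The background in all 19775 genes was 12% called with both compounds (6.43% higher, 5.54% lower), 0.824% with PF-03084014 (0.475% higher, 0.349% lower) and 0.101% with dexamethasone (0.086% higher, 0.0152% lower). The members' share with both compounds, 11 of 50, stood beside that 12%. Among the 25 members with a mean intensity of at least 100, 9 were called, against 19.7% of the genes that bright. In these bulk cultures less RNA per cell and fewer cells making it cannot be told apart.

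The median log2 difference of the 50 members was 0.18 with PF-03084014, 0.03 with dexamethasone and 0.24 with both, against medians of 0.02, 0.01 and 0.06 over all genes. Single members ranged from -1.94 to 1.92 with both compounds, so the genes did not move as a block. The 2 falls were both in H1, and the rises were in all 5 types, in H1 only for the pseudogene H1-9P near the floor. Without the second combination array, whose median stood apart, the members' median with both compounds was 0.274, beside 0 over all genes. Without the first combination array it was 0.23, beside 0.0853. Over the 8 fits that each left out 1 array it ran from 0.213 to 0.28. The number of calls changed widely between these fits, among all genes as well as among members. Of the 11 calls that of H2AC6 was kept in all 8 of these fits and the others in 1 to 6. With the arrays shifted to a common median, H1-9P, H2AC25, H2BC5, H2BC12, H2BC21 and H4C11 no longer passed, the last 5 at 0.42, 0.46, 0.53, 0.48 and 0.27.

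**Figure D1:**
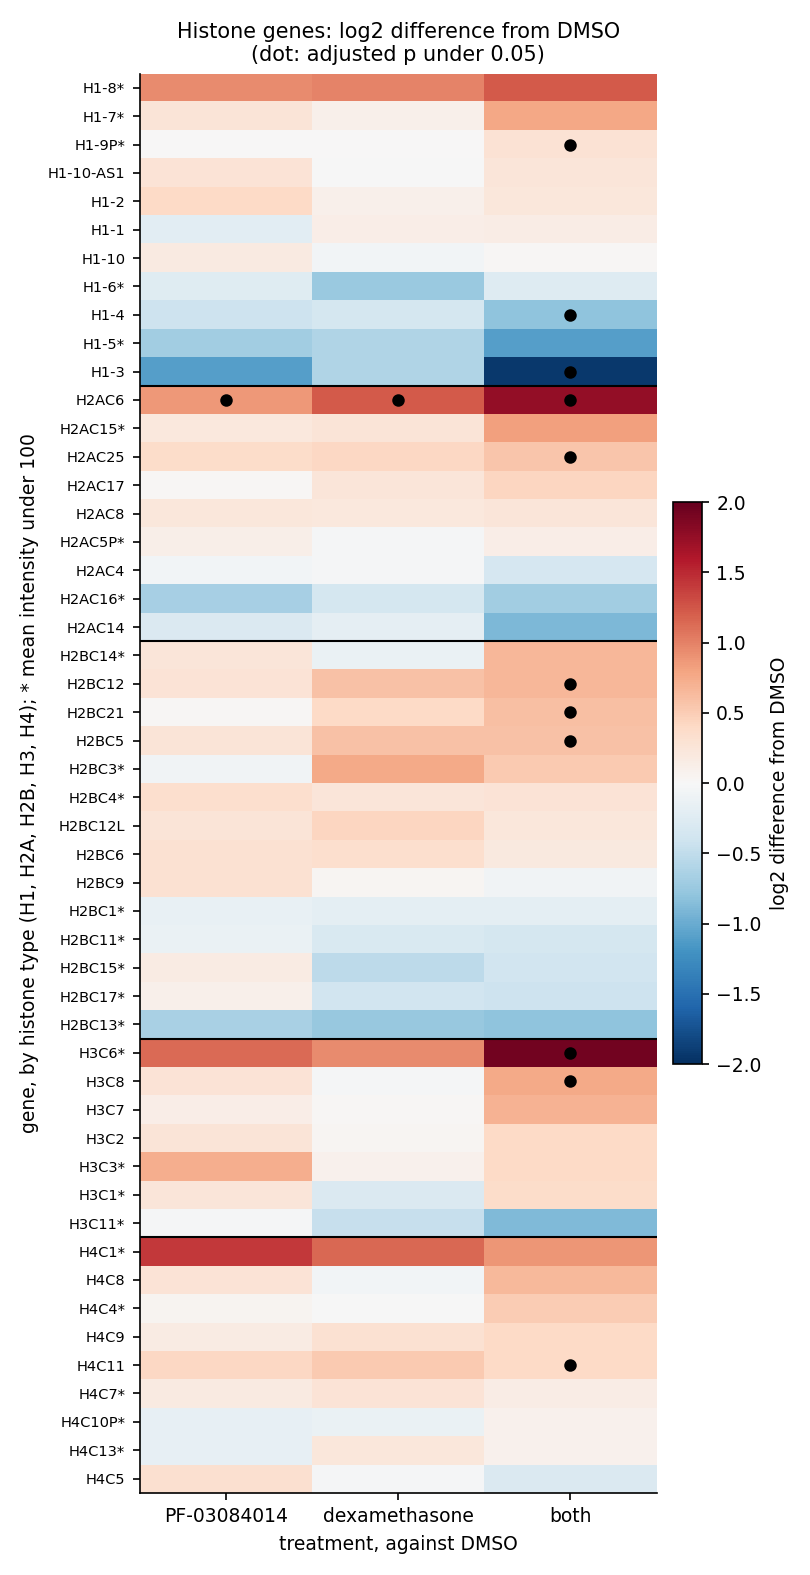
Log2 difference from DMSO of each of the 50 members (rows, by histone type) for PF-03084014, dexamethasone and both compounds (columns), on a colour scale from -2 to 2; a dot marks an adjusted p under 0.05 and an asterisk a mean intensity under 100. H2AC6 is the one row with a dot in every column, H1-3 and H1-4 are the marked blue cells, and rows of both colours stand in each type.

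H2AC6, an H2A gene of the chromosome 6 cluster, was the member that changed in every comparison with DMSO. It measured 221 and 248 with DMSO, 408 and 445 with PF-03084014, 557 and 546 with dexamethasone, and 735 and 847 with both. The groups did not overlap and stood in that order on every array. The log2 difference from DMSO was 0.86 ± 0.10 (standard error of the fit, n = 2 arrays per group; 1.82-fold, adjusted p = 0.0416) with PF-03084014. Dexamethasone gave 1.23 ± 0.10 (2.35-fold, adjusted p = 0.0467) and both compounds 1.75 ± 0.10 (3.37-fold, adjusted p = 0.00262). The combination also exceeded dexamethasone alone by 0.52 ± 0.10 (adjusted p = 0.0486) and PF-03084014 alone by 0.89 ± 0.10 (adjusted p = 0.0246), each kept in 1 of the 8 fits that left out an array.

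The call of H2AC6 with both compounds was kept in each of 8 fits that left out 1 array (1.65 to 1.85). That with PF-03084014 was kept in 2 of them, without either combination array, and lost without any other (adjusted p 0.113 to 0.246, difference 0.78 to 0.95). That with dexamethasone was lost in all 8 (adjusted p 0.0732 to 0.216, difference 1.15 to 1.32). With the replicate number as a block both single-compound calls were lost as well, with the differences as before. With the arrays shifted to a common median, the combination exceeded dexamethasone alone by 0.36 and no longer passed (adjusted p = 0.157). It then exceeded PF-03084014 alone by 0.76 and still passed (adjusted p = 0.0297). The deviation of the combination from the sum of both single differences was -0.35 ± 0.15 (adjusted p = 0.572). The probe set's name ends in _s_at, the mark of a set that can bind several transcripts.

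H2BC4 shares a promoter region with H2AC6: the genes are read in opposite directions from starts 246 bases apart. By its own probe set H2BC4 was dim, at 65 and 88 with DMSO, 102 and 90 with PF-03084014, 92 and 87 with dexamethasone, and 94 and 89 with both. Its differences from DMSO, 0.34 ± 0.19, 0.24 ± 0.19 and 0.27 ± 0.19, did not pass the test (adjusted p 0.589, 0.840 and 0.410). Brighter probe sets that list 5 H2B genes, H2BC4 among them, differed from DMSO by 0.45, -0.29 and -0.33 with both compounds. None of these passed. The difference between these neighbours was not tested.

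Of the 9 H2A members 2 rose with both compounds and none fell. The other that rose was H2AC25, an H2A gene on chromosome 1 apart from the main cluster. It measured 345 and 374 with DMSO, 471 and 457 with PF-03084014, 468 and 485 with dexamethasone, and 552 and 501 with both. All 6 treated arrays were above both DMSO arrays, and the rise with both compounds was 0.55 ± 0.08 (1.47-fold, adjusted p = 0.0147). That call was lost when the 2 probe sets of the gene were averaged (0.35). H2AC14, chosen after its values were seen, was the lowest H2A member with both compounds at -0.90 ± 0.24 (adjusted p = 0.0751), by an _x_at probe set. The median of the 9 was 0.23.

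**Figure D2:**
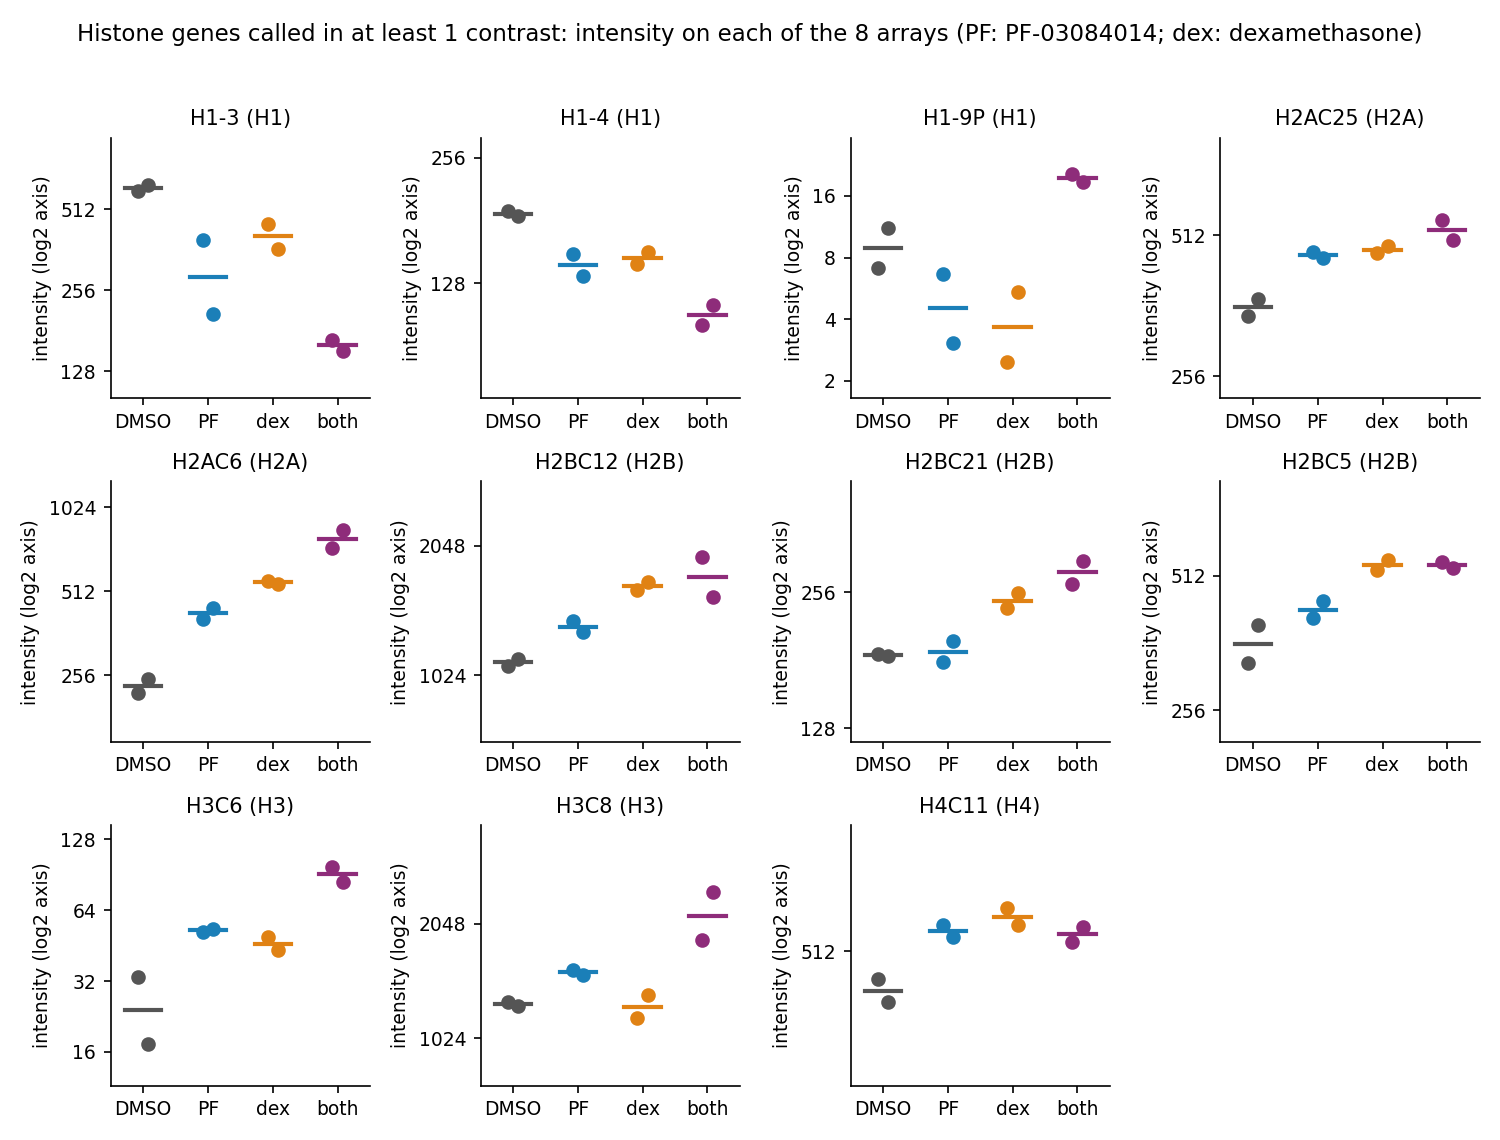
Intensity on each of the 8 arrays (points, log2 axis) for the 11 members called in at least 1 comparison, with the group mean as a bar; groups are DMSO, PF-03084014 (PF), dexamethasone (dex) and both. H2AC6 steps up through the groups without overlap, H1-3 and H1-4 are lower on every treated array than with DMSO and lowest with both, and the 6 points of H1-9P outside the combination lie below the floor of 16 applied before testing.

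Linker histones held both falls. H1-3 measured 599 and 629 with DMSO, 395 and 208 with PF-03084014, 452 and 365 with dexamethasone, and 168 and 153 with both. Every treated array was below both DMSO arrays, and the combination arrays were the lowest. The fall with both compounds was -1.94 ± 0.31 (3.83-fold lower, adjusted p = 0.0195). The single compounds gave -1.10 ± 0.31 (adjusted p = 0.216) and -0.60 ± 0.31 (adjusted p = 0.695). The 2 PF-03084014 arrays lay nearly as far apart from each other as from DMSO.

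H1-4 fell with both compounds by 0.81 on the log2 scale (standard error 0.14, 1.75-fold, adjusted p = 0.0231). It measured 191 and 185 with DMSO, 151 and 133 with PF-03084014, 142 and 152 with dexamethasone, and 102 and 113 with both. Here too all treated arrays were below DMSO, with single-compound differences of -0.41 and -0.36 (adjusted p 0.295 and 0.546). H1-5, chosen after its values were seen, measured 144 and 146 with DMSO and 83 and 55 with both, a difference of -1.10 ± 0.25 that narrowly missed the threshold (adjusted p = 0.0506). The calls of H1-3 and H1-4 were kept in 3 and 2 of the 8 fits that left out an array, and over all alternatives their adjusted p reached 0.100 and 0.185.

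H1-2, the brightest replication-dependent H1 gene, did not follow them. It measured 1094 and 1130 with DMSO, 1508 and 1427 with PF-03084014, 1241 and 1158 with dexamethasone, and 1572 and 1087 with both. The combination arrays lay on either side of the DMSO arrays, and no difference passed the test (0.40 ± 0.17, 0.11 ± 0.17 and 0.23 ± 0.17, adjusted p 0.419, 0.958 and 0.419).

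H1-10, made outside S phase as well, stood at a high level: 4417 and 4377 with DMSO, and 4041 to 5027 on the 6 treated arrays. Its difference with both compounds was 0.02 ± 0.09 (adjusted p = 0.947). The antisense H1-10-AS1 from the same locus measured 4213 and 4342 with DMSO, 5082 and 5260 with PF-03084014 and 4727 and 5381 with both. Its differences were 0.27 ± 0.07 and 0.24 ± 0.07 (adjusted p 0.168 and 0.0859).

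Pseudogenes were near the level of blanks, and the germline H1 genes were dim. The 27 bacterial control probe sets had array medians of 18.6 to 23.4, and 8 members were at or under the floor of 16 on at least 1 array. H1-9P was at or under 11.1 on the 6 arrays outside the combination and at 20.6 and 18.8 on the combination arrays. Its call (0.30 ± 0.06, adjusted p = 0.0331) compares values within the controls' range with the floor, and its difference was 0 with a floor of 32. The germline gene H1-6 measured 54 and 69 with DMSO and 33 and 41 with dexamethasone, a difference of -0.74 ± 0.23 (adjusted p = 0.436).

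With both compounds 3 of the brighter H2B genes rose and none of the 14 fell. H2BC12 measured 1075 and 1120 with DMSO, 1366 and 1287 with PF-03084014, 1619 and 1683 with dexamethasone, and 1926 and 1558 with both. The rise with both was 0.66 ± 0.10 (1.58-fold, adjusted p = 0.0196). With dexamethasone alone the difference was 0.59 ± 0.10 (adjusted p = 0.210), and all treated arrays were above DMSO.

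H2BC5 measured 326 and 397 with DMSO, 411 and 450 with PF-03084014, 526 and 554 with dexamethasone, and 550 and 534 with both. Dexamethasone arrays and combination arrays overlapped, and the combination differed from dexamethasone alone by 0.00 ± 0.11 (adjusted p = 1.00). The rise with both against DMSO was 0.59 ± 0.11 (adjusted p = 0.0314), and with dexamethasone alone the difference was 0.59 ± 0.11 (adjusted p = 0.233). A second probe set of the gene gave 0.43 with both (adjusted p = 0.136 over all probe sets). Both sets are of the _x_at kind, whose probes can bind near-identical H2B genes.

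H2BC21, the H2B member on chromosome 1, measured 187 and 185 with DMSO, 179 and 200 with PF-03084014, 236 and 255 with dexamethasone, and 267 and 300 with both. PF-03084014 and DMSO overlapped, and the dexamethasone and combination arrays were higher. The differences were 0.02 ± 0.12, 0.40 ± 0.12 and 0.61 ± 0.12 (adjusted p 1.00, 0.407 and 0.0319). Over the 14 H2B members the differences with both compounds ran from -0.80 to 0.66 with a median of 0.21.

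Both H3 genes that rose did so with the combination. H3C8 measured 1278 and 1245 with DMSO, 1547 and 1503 with PF-03084014, 1155 and 1328 with dexamethasone, and 1855 and 2472 with both. Dexamethasone overlapped DMSO, and the combination was above every other array. It exceeded DMSO by 0.76 ± 0.15 (1.70-fold, adjusted p = 0.0317) and dexamethasone alone by 0.79 ± 0.15 (adjusted p = 0.0408), while dexamethasone alone differed from DMSO by -0.03 ± 0.15 (adjusted p = 1.00). Its _x_at probe set can bind other H3 genes, whose coding sequences are nearly alike.

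H3C6 was dim at 33 and 17 with DMSO, 52 and 53 with PF-03084014, 49 and 43 with dexamethasone, and 98 and 84 with both. The rise of 1.92 ± 0.33 with both compounds (adjusted p = 0.0232) rests on DMSO values near the blanks. A second probe set of H3C6, more even over the arrays, gave 0.31 (adjusted p = 0.423 over all probe sets), so the gene's probe sets disagree. The median of the 7 H3 members with both compounds was 0.40.

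Among 9 H4 genes H4C11 was the one called by the probe set that stood for the gene. It measured 448 and 399 with DMSO, 583 and 548 with PF-03084014, 630 and 582 with dexamethasone, and 535 and 577 with both. All treated arrays were above DMSO, and the PF-03084014 arrays overlapped those of both other treatments, with differences of 0.42 ± 0.09, 0.52 ± 0.09 and 0.40 ± 0.09 (adjusted p 0.127, 0.197 and 0.0485). The call was kept in 3 of 10 alternative settings. H4C8 was chosen after its values were seen. A second, dimmer probe set of H4C8 measured 52 and 59 with DMSO and 68 and 88 with PF-03084014. It measured 84 and 68 with dexamethasone and 125 and 132 with both, and it rose with both compounds (1.22, adjusted p = 0.0358 over all probe sets). The set that stood for H4C8 measured 191 and 163 with DMSO and 173 and 443 with both and did not pass (0.65 ± 0.44, adjusted p = 0.382). Both sets differed from DMSO in the same direction, and the 2 combination arrays of the set that did not pass lay far apart. H4C1 measured 13 and 26 with DMSO and 34 to 59 on the treated arrays, and its differences of 1.42, 1.16 and 0.88 did not pass the test (adjusted p 0.0972, 0.302 and 0.101). These sizes rest on DMSO values at the level of the bacterial controls and the floor.

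Against dexamethasone alone the combination called 3 members higher, H1-9P, H2AC6 and H3C8, beside 7.26% of all genes. Against PF-03084014 alone it called H2AC6, beside 2.87% of all genes. In the interaction of the compounds limma called 0 members and 0% of all genes. At an unadjusted p under 0.05 there were 4 members and 1798 genes, and the lowest adjusted p of a member was 0.334, for H4C1 (-1.70 ± 0.38), whose DMSO values were at the level of the controls. Without the first combination array more members passed in each of these 3 comparisons, and so did more of all genes. The members' medians were then -0.0137, 0.0169 and -0.139, beside 0.0635, 0.0357 and 0.0111 over all genes. Without any other single array few or no members passed.

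The 6 histone genes known as sources of polyadenylated mRNA were H1-2, H2AC6, H2BC4, H2BC5, H2BC12 and H2BC21, and 4 of them rose with both compounds. Called higher were 6.43% of all genes, and 1123 of the 10793 with a mean intensity of at least 100. With each single compound 1 rose, H2AC6. Their median differences were 0.30 with PF-03084014, 0.49 with dexamethasone and 0.60 with both, against 0.18, 0.03 and 0.24 over all 50 members and 0.26, 0.11 and 0.24 over the 25 members with a mean intensity of at least 100. All 6 were above 0 in each of these comparisons, H2BC21 by only 0.02 ± 0.12 with PF-03084014. Of the 50 members 34, 26 and 35 were above 0.

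S phase genes, the genes of DNA replication that are active when histone genes are, fell with both compounds in 16 of 24 cases, and none rose. Called lower were 5.54% of all genes, and 999 of the 10793 with a mean intensity of at least 100. The S phase genes' median difference was -0.46. It was -0.05 with PF-03084014 and -0.12 with dexamethasone, where limma called none (2 and 9 of them had an unadjusted p under 0.05). The largest fall was that of GINS2, a subunit of the replicative helicase, at -0.97 ± 0.11 (adjusted p = 0.0080). It measured 3771 and 3805 with DMSO and 2169 and 1727 with both. The smallest p with a single compound belonged to CDC6, which loads that helicase, with PF-03084014 (-0.22, adjusted p = 0.286) and to CDK2, the S phase kinase, with dexamethasone (-0.34, adjusted p = 0.0681). Whether this had a part in the histone values was not tested.

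**Figure D3:**
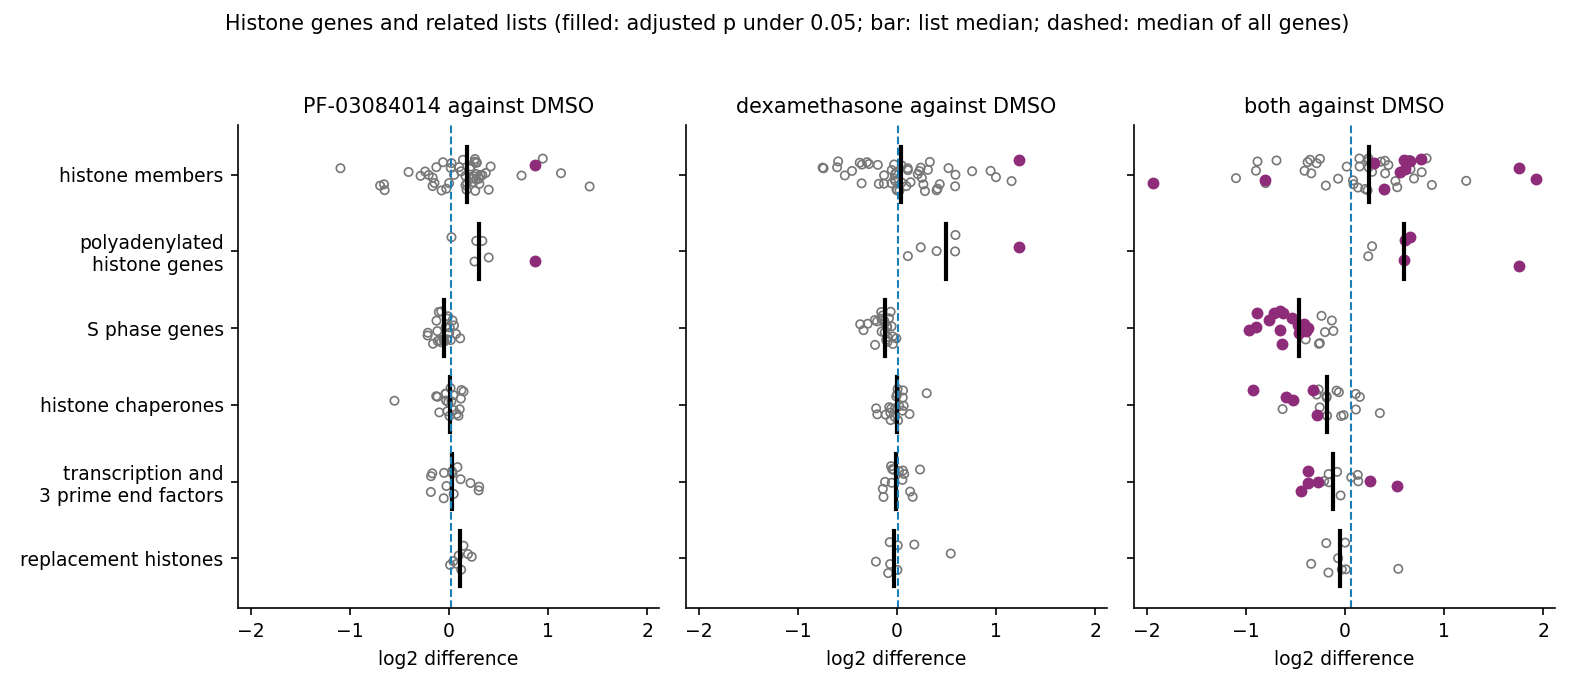
Log2 difference from DMSO (x axis) of each gene (points) in the 50 members and 5 related lists, for PF-03084014, dexamethasone and both compounds; filled points have an adjusted p under 0.05, black bars are list medians and the dashed line is the median of all genes. With both compounds the S phase genes lie below 0, with 16 of 24 filled, while the polyadenylated histone genes lie above it, with 4 of 6 filled.

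Of 20 histone chaperones, which carry and deposit histones, 5 fell with both compounds and none rose. Among all 10793 genes with a mean intensity of at least 100, 999 were called lower, and 19.7% were called in either direction. The chaperones that fell were CHAF1B, CHAF1A, ASF1B, HAT1 and SSRP1. CHAF1B, a subunit of the factor that places H3 and H4 on new DNA, fell most, by 0.93 on the log2 scale (standard error 0.16, adjusted p = 0.0235), from 1222 and 1372 to 802 and 579. With the single compounds none was called and 2 each had an unadjusted p under 0.05. IPO4, a histone importer, had the smallest p with PF-03084014 (-0.55, adjusted p = 0.0972), and ASF1B, an H3-H4 chaperone, with dexamethasone (-0.20, adjusted p = 0.293).

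Factors of histone transcription and mRNA 3′ end formation changed both ways with both compounds, 2 of 14 up and 4 down, beside the same 19.7%. SLBP, which binds the stem-loop, fell by 0.37 (standard error 0.05, adjusted p = 0.0109), from 7619 and 7686 to 6131 and 5700. LSM11, of the particle that cuts the histone mRNA, fell most, by 0.45 (standard error 0.10, adjusted p = 0.0496), and CSTF2 and CPSF3, of the cleavage machinery, fell as well. TUT7, which adds uridines to RNA ends, rose most, by 0.53 ± 0.08 (adjusted p = 0.0148), and the transcription factor HINFP rose by 0.25 ± 0.05 (adjusted p = 0.0277).

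NPAT, the coactivator at histone gene clusters, measured 1071 and 1126 with DMSO, 1272 and 1445 with PF-03084014, 1032 and 1112 with dexamethasone, and 1215 and 1193 with both. Its differences of 0.30 ± 0.08, -0.04 ± 0.08 and 0.13 ± 0.08 did not pass the test (adjusted p 0.177, 0.980 and 0.321). None of the 14 factors was called with a single compound, where 3 and 4 had an unadjusted p under 0.05. HINFP had the smallest p with dexamethasone (0.23, adjusted p = 0.242).

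Replacement histones, many but not all of which are made independently of the cell cycle, were called in no treatment. Limma called 0 of 8 each time, and 1, 0 and 1 had an unadjusted p under 0.05. The smallest p with both compounds, and with dexamethasone, was that of CENPA, the H3 variant of centromeres. Its differences were -0.34 ± 0.10 (adjusted p = 0.0909) and -0.21 ± 0.10 (adjusted p = 0.644). With PF-03084014 it was that of H2AX, the DNA damage variant (0.19, adjusted p = 0.279).

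A further 20 probe sets listed several histone genes at once and were outside the rule. They included probe sets brighter than any member's. A set for 14 H4 genes measured 12768 and 12952 with DMSO and 13360 and 11196 with both, a difference of -0.07 (adjusted p = 0.703). A set for H2AC18 and H2AC19 measured 6097 and 5838 with DMSO and 6027 and 5971 with both, a difference of 0.01 (adjusted p = 1.00).

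In a fit over all 54675 probe sets, chosen after the data were seen, limma called 0 of these 20 with either single compound, beside backgrounds of 0.3% for PF-03084014 and 0.0549% for dexamethasone. With both compounds 1 rose and none fell, beside 6.32%. It was the set of the H2B genes H2BC8 and H2BC11, at 117 and 104 with DMSO, 162 and 147 with PF-03084014, 176 and 147 with dexamethasone, and 231 and 228 with both (1.06, adjusted p = 0.0177). Another set of these same genes, of similar mean intensity (150 against 164), did not show this rise. It measured 139 and 152 with DMSO and 186 and 113 with both, a difference of -0.0037. So the shared sets of these genes disagree. H2BC11 alone, by its own dim probe set, was at 44 and 44 with DMSO and 49 and 25 with both.

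**Figure D4:**
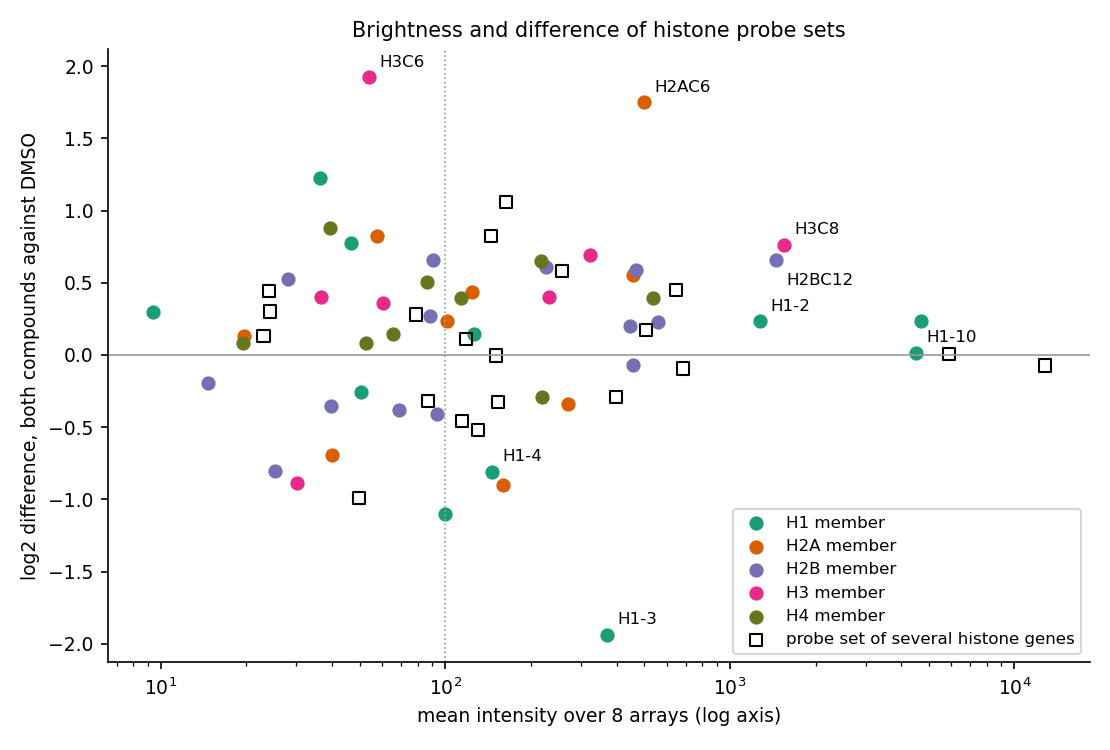
Log2 difference of both compounds from DMSO (y axis) against mean intensity over the 8 arrays (x axis, log scale) for the 50 members (filled circles, coloured by type) and the 20 probe sets of several histone genes (open squares); the dotted line marks an intensity of 100. The brightest shared sets lie at the zero line, while H2AC6 and H1-3, of middle brightness, lie far above and below it.

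Array medians lay between 61.8 and 63.9 on 7 arrays and at 76.3 on the second combination array. The members' log2 values differed between the 2 arrays of a group with a standard deviation of 0.547 in the combination, where DMSO and the single compounds gave 0.309 to 0.356, so the pooled standard errors above may be too small where the combination is compared. T lineage markers were bright, with CD3D at a mean intensity of 13476 and LCK at 8490, and PTCRA, CD2 and CD3E were called with both compounds. Markers of other lineages were mostly dim: CD14 was at 10.3, EPCAM at 22.9 and PAX5 at 42.9, while CD79A, at 419, rose with both compounds (0.86, adjusted p = 0.00667). The part of this in the histone results was not tested.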

How the data were processed

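Total RNA (200 ng, per the labels' protocols) was labelled with an Affymetrix kit that amplifies from the 3′ end. The authors deposited linear intensities, 1 per probe set; how they summarised and normalized them is not given in the sources used here. Of 54675 probe sets, 41097 had 1 gene in the platform annotation, and 41043 of these took a current symbol through the gene ID from RefSeq. Probe sets of several genes (1801) or none (11777) were left out.

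Intensities were floored at 16, converted to log2 and fitted with limma 3.58.1 in R 4.3.3: 1 fit of 8 arrays, group means, eBayes with an intensity trend, 4 residual degrees of freedom and a median of 1.35 prior ones. A gene was called at a two-sided Benjamini-Hochberg adjusted p under 0.05 over 19775 genes. The fit was tested on simulated data. The number of arrays limits the precision.

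Members and lists were chosen with earlier results of these data known. Named members are all called ones, the brightest of each type, the smallest p of each type and treatment, and the polyadenylated list. In other lists they are the largest called rise and fall, or the smallest p, with SLBP and NPAT always. Motifs were searched in RefSeq promoter windows. Alternatives covered normalization, floor, dim genes, probe set choice, trend, groups in the fit, the replicate block and single arrays.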

Additional observations from a re-analysis of the deposited data

How the results depend on the processing

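No alternative reversed a called difference, but the members' median for both compounds against dexamethasone (0.07) and against PF-03084014 (-0.0015), which carries no test, changed sign in some settings given here. For PF-03084014 against DMSO the main fit called 1 member, beside 163 of all genes. The member count became 0 with a floor of 32 (166 of all genes) and without _x_at and _s_at probe sets, which removes H2AC6 (123). It was also 0 with only the groups compared (0), without the intensity trend (73) and with the replicate block (79). The members' median was 0.261 without dim genes. For dexamethasone the main fit called 1 member, beside 20 of all genes. The member count became 0 under quantile normalization (11 of all genes), with the mean of all probe sets (8) and without _x_at and _s_at sets (11). It was also 0 with only the groups compared (0), without the trend (9) and with the replicate block (3). The members' median was 0.109 without dim genes. For both compounds the main count was 11, beside 2368 of all genes. It became 7 without _x_at and _s_at sets, beside 1744, and 0 with only the groups compared, which leaves fewer residual degrees of freedom. With only the groups compared, no gene at all was called in any comparison fitted that way. With arrays shifted to 1 median 6 members were called, beside 1452 of all genes. That shift moved the median of all genes from 0.063 to -0.068 and that of the members from 0.236 to 0.106. Against dexamethasone alone the combination called 1 member with a floor of 32, beside 1199 of all genes. It also called 1 with the mean of probe sets and 1 without _x_at and _s_at sets, beside 787 and 949. Without dim genes it called 5, beside 2364. It called 0 with only the groups compared, and 0 without the trend, beside 914. The members' median was -0.0827 after the shift. Against PF-03084014 alone the combination called 2 members with a floor of 32 and 2 without dim genes, beside 513 and 945 of all genes. It called 0 without _x_at and _s_at sets, beside 411, and 0 with only the groups compared. The members' median was -0.131 after the shift. The interaction's median was -0.16 under quantile normalization, -0.214 after the shift, -0.00819 with a floor of 32, -0.204 without dim genes and -0.0164 without _x_at and _s_at sets. Unless the alternative itself shows it, the cause was not tested.

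Leaving out 1 array, the lone array of that group being taken to vary like the others, gave 0 to 2 called members for PF-03084014, 0 to 0 for dexamethasone, 2 to 19 for both, 0 to 9 for both against dexamethasone, 0 to 14 for both against PF-03084014 and 0 to 3 in the interaction. The highest counts for these last 4 were without the first combination array. The medians ranged from 0.164 to 0.191, 0.0346 to 0.049, 0.213 to 0.28, -0.0137 to 0.173, -0.00152 to 0.111 and -0.139 to -0.00555 in the same order. Replicate numbers did not pair the arrays (correlations of deviations -0.0113 to 0.0799), and the block changed no other count by over 1.5 times. The probe set by highest mean log2, chosen after seeing the data, ended the call of H3C6 (0.305).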
